A study of Mus musculus with 48 samples.

Results

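The 9 genes described here make and use nicotinamide adenine dinucleotide (NAD) and were followed through the day in inguinal white adipose tissue of mice on 2 feeding schedules. They were taken by gene symbol from a table of 54532 genes, and all 9 had enough reads to be among the 19977 genes tested. The animals were 8-month-old C57BL/6 mice (C57BL/6J males according to the methods) on regular chow. Ad-Lib (AL) mice ate freely, and twice-a-night (TAN) mice had food only in an early and a late meal of the dark phase, which ran from 8PM to 8AM. TAN mice also ate modestly less, so meal timing and food amount cannot be told apart here. Tissue was taken at 6 times of day from each schedule, with 4 libraries per group and 48 in all. The labels do not say whether each library came from 1 animal, so the p-values measure only the spread between these libraries. The series text names the stromal vascular fraction, whereas the methods describe whole fat. Adipoq, the adipocyte hormone adiponectin, was read at 551 to 7053 CPM (read counts scaled to a common library size) in the 48 libraries, so adipocyte RNA was present in each one.

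NAD carries electrons in metabolism and is also broken down by enzymes that use it as a substrate. Nampt turns nicotinamide back into nicotinamide mononucleotide and is the rate-limiting step of the salvage route, and the Nmnat enzymes complete it, Nmnat1 in the nucleus and Nmnat3 in mitochondria. Nadk phosphorylates NAD to NADP. Nnmt methylates nicotinamide and so draws it out of salvage, and it is abundant in white fat. The sirtuins are NAD-dependent deacylases, Sirt1 in the nucleus and Sirt3 and Sirt5 in mitochondria, and Parp1 spends NAD in the response to DNA damage. Nampt is known as a target of the circadian clock, in which the heterodimer of Clock and Arntl (Bmal1) binds E-boxes in DNA.

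The upstream sequences of Nampt, Nmnat3, Sirt1 and Parp1 are shown because these genes span the patterns described below, from wide to narrow daily ranges. RefSeq promoter windows on GRCm38.p6 were held for 8 of the 9 genes, and Nnmt was not among them. Each sequence runs 5′ to 3′ along the gene's own strand and ends at the annotated start, except that of Sirt1, which ends 16 bases before it because the last bases lie in an annotated exon. Capitals mark the E-box CACGTG, which reads the same on both strands. Nampt is at chr12:32820085-32820334 (plus strand), Nmnat3 at chr9:98296320-98296569 (plus), Sirt1 at chr10:63339051-63339285 (minus) and Parp1 at chr1:180568641-180568890 (plus).
Nampt: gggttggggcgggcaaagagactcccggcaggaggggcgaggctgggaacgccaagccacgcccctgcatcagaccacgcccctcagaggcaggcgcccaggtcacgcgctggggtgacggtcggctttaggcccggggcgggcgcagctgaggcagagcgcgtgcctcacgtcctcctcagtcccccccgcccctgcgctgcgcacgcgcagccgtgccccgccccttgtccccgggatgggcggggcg
Nmnat3: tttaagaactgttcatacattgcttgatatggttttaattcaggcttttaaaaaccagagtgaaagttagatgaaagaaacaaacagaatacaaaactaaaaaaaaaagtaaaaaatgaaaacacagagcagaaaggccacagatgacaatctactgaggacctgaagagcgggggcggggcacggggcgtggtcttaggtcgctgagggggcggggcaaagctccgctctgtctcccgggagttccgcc
Sirt1: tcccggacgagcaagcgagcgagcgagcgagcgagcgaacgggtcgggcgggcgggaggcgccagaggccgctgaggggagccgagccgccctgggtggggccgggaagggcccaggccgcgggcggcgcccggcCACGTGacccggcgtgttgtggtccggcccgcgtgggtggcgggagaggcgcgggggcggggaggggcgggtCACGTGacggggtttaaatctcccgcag
Parp1: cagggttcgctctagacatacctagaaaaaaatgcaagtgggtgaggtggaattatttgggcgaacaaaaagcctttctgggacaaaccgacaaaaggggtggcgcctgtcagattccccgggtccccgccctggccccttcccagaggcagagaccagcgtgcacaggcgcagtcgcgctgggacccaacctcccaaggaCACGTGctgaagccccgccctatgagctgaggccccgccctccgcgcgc

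The E-box stood at 2 places upstream of Sirt1, at 115 to 110 and at 43 to 38 bases before the start, and at 1 place upstream of Parp1, at 49 to 44 bases. The second of the 2 annotated starts of Nadk also had one, at 40 to 35 bases. No E-box lay in the 250 bases before the RefSeq starts of Nampt, Nmnat1, Nmnat3, Sirt3 or Sirt5. The RefSeq starts of Nampt, Nmnat3 and Sirt1 lie inside the gene bodies given below, so sequence before their outer starts was not searched. Of all 32851 windows of this length, 6.02% held it. The D-box TTATGNAA was in none of the 8 genes' windows and in 3.07% of all windows. The ROR element TAGGTCA was in 1, that of Sirt5, and in 2.23% of all windows, with both strands searched for each motif. These are matches of letters within a short window and say nothing of distant sites.

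The gene bodies, on GRCm38, were chr12:32819545-32853349 for Nampt, chr4:149467572-149485202 for Nmnat1, chr9:98287435-98420438 for Nmnat3, chr4:155562378-155591001 for Nadk, chr9:48591877-48605153 for Nnmt, chr10:63319005-63381704 for Sirt1, chr7:140863666-140882309 for Sirt3, chr13:43365496-43395203 for Sirt5 and chr1:180568924-180601254 for Parp1. Counts were used as deposited per gene, and how reads were assigned to exons was not given in the sources used here. Sirt3 overlapped both of its neighbours, Psmd13 by 342 bases and Ric8a by 707 bases, on the opposite strand. Psmd13 held 106152 counts and Ric8a 66855 over the 48 libraries against 15113 for Sirt3. Whether counting used strand was not given in the sources used here, so the Sirt3 values are uncertain. The long noncoding RNA Gdap10 lies inside Nampt on the same strand, with 8995 counts for Gdap10 and 264080 for Nampt. Reads there may be divided between them whatever the strand setting.

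Library totals were 15636378 to 29913310 counts in AL and 15685080 to 25440243 in TAN. Libraries differed in lymphocyte transcripts, and the inguinal depot is known to hold a lymph node. The summed level of 10 lymphocyte markers was 8.75 to 45.0 CPM in 10 libraries and 323 to 2826 CPM in the other 38. The 10 low libraries comprised 1 of AL at 8AM, 2 of AL at 12PM, 1 of AL at 4AM, 3 of TAN at 4PM, 1 of TAN at 8PM and 2 of TAN at 12AM, and none of the 10 markers was at 0 in any of them. Fits without these 10 libraries thus left out 3 of the 4 TAN libraries at 4PM. Their results over time in TAN rest there on replicate 3 alone. In bulk tissue, fewer cells of a type and less RNA per cell cannot be told apart. The times used are those of the count table. A separate listing of FPKM values for the same libraries gives each of the 48 under a time 12 h away. Comparisons of TAN with AL at one time hold the same libraries under either labelling, but every hour given here would move by 12 h.

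The 9 genes spanned a wide range of abundance on a scale of CPM per kilobase of gene length. Nnmt stood highest at a median of 123 CPM per kb over the 48 libraries, followed by Nadk at 90.8 and Nampt at 45.5. Sirt1 at 9.09 and Parp1 at 8.86 were close together, and Sirt1 was the higher in only 28 of 48 libraries, and the range of Sirt1 lay within that of Parp1. Below them came Nmnat3 at 2.97, Sirt3 at 2.33, Sirt5 at 1.87 and Nmnat1 at 1.65 CPM per kb. Nnmt exceeded Nadk in 45 libraries, and Nadk exceeded Nampt, and Nampt exceeded Sirt1, in all 48. Parp1 exceeded Nmnat3 in 40 libraries, Nmnat3 exceeded Sirt3 in 38, Sirt3 exceeded Sirt5 in 40 and Sirt5 exceeded Nmnat1 in 30. The methylating enzyme, the NAD kinase and the salvage enzyme Nampt were therefore read far above Sirt1, Sirt3, Sirt5 and Parp1, which consume NAD. Other enzymes that consume NAD were not placed on this scale.

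**Figure D1:**
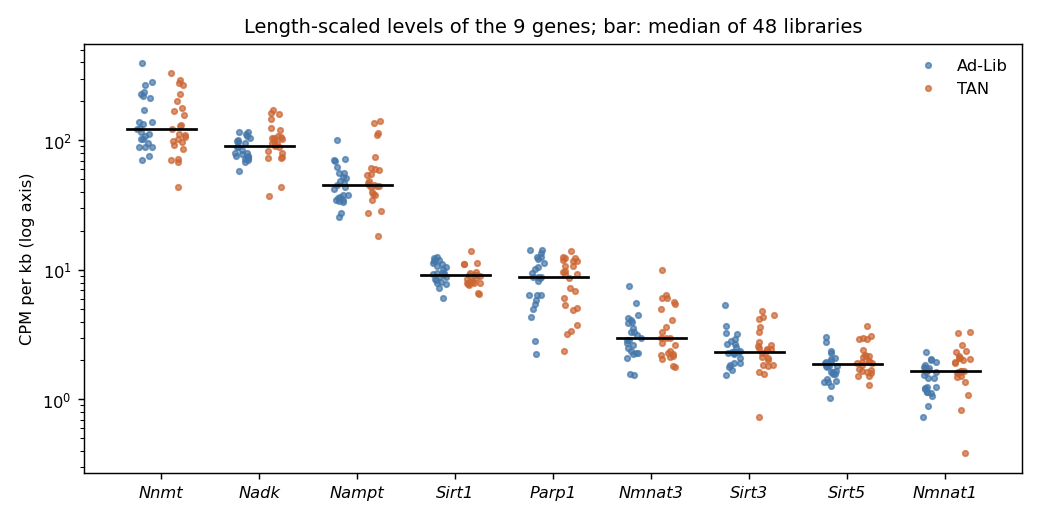
Levels of the 9 genes in CPM per kilobase of gene length on a log axis, with 1 point per library (AL blue, TAN orange) and a bar at the median of 48 libraries. Nnmt, Nadk and Nampt lie between medians of 45.5 and 123 CPM per kb, and the other 6 genes lie between 1.65 and 9.09.

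In AL, none of the 9 genes passed the test for variation over the 6 times (edgeR's quasi-likelihood F test, Benjamini-Hochberg adjusted p under 0.05), with 1 at an unadjusted p under 0.05 and 0 by DESeq2. Of all genes tested, 0.0551% passed and 6.67% had an unadjusted p under 0.05. In TAN, 5 of the 9 passed, Nampt, Nmnat3, Nadk, Nnmt and Parp1, against 23.0% of all genes, and 1 more, Nmnat1, had an unadjusted p under 0.05 (42.2% of all genes). The log2 range between the highest and lowest time in TAN was 1.61 for Nampt (adjusted p = 0.00193 by edgeR's quasi-likelihood F test), 1.60 for Nmnat3 (0.00111), 1.52 for Parp1 (0.0265), 1.40 for Nnmt (0.0462) and 0.83 for Nadk (0.0419). When 1 replicate number was left out at a time, Nampt and Nmnat3 passed in all 4 fits, and Nadk, Nnmt and Parp1 in 1 of 4 each. With the lymphocyte marker level of each library as a covariate, Nampt and Nmnat3 were the 2 that passed. That more genes passed in TAN than in AL is no test of a difference between the schedules. That test, the interaction of schedule and time, was passed by 3 of the 9, Nmnat3, Parp1 and Nnmt, against 8.98% of all genes. The TAN effect averaged over the 6 times passed for 0 of 9 genes in edgeR's quasi-likelihood test and 0 in DESeq2, with 1, Sirt5, at an unadjusted p under 0.05. Of all genes, 5.42% passed and 21.5% had an unadjusted p under 0.05. A cosine with a period of 24 h, fitted to the log2 group means, passed for 4 of the 9 in TAN, Nampt, Nmnat3, Nnmt and Parp1, against 19.8% of all genes. In AL it passed for 0 of 9 in edgeR's quasi-likelihood F test and 0 in DESeq2, with 4 at an unadjusted p under 0.05. Of all genes, 0.0801% passed and 11.4% had an unadjusted p under 0.05.

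**Figure D2:**
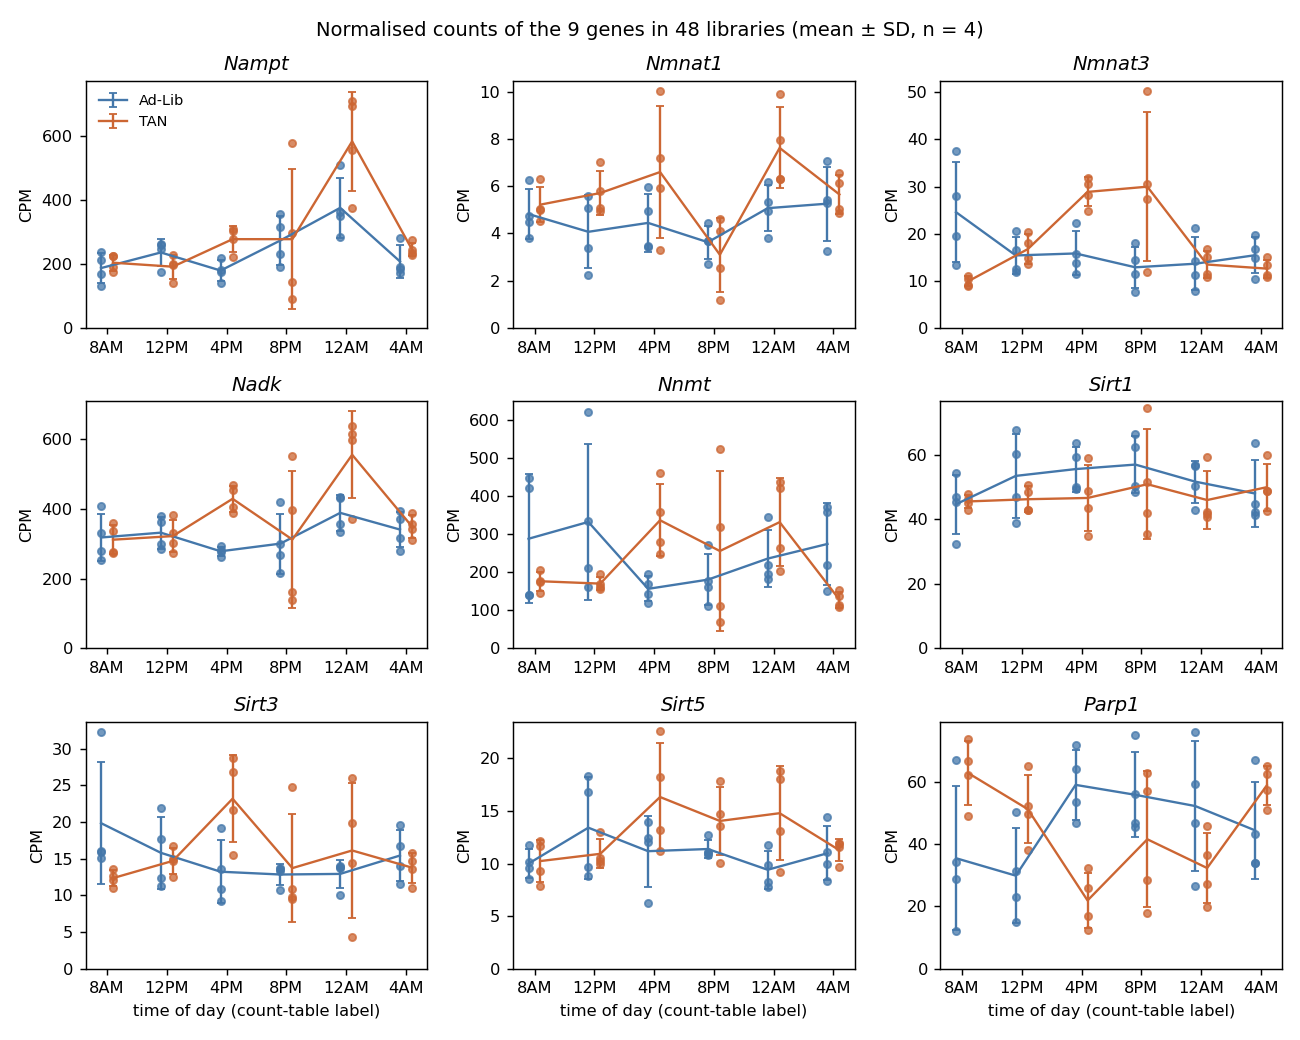
Normalised counts (CPM, axes from 0) of the 9 genes at the 6 times of day, with 1 point per library and lines through the group means with SD bars (n = 4 per group). Nampt is highest at 12AM on both schedules, Nmnat3 in TAN is lowest at 8AM and highest at 4PM and 8PM, and Sirt1 stays between 32.3 and 74.3 CPM throughout.

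Nampt was highest at 12AM on both schedules. At 12AM the 4 AL libraries read 509, 362, 284 and 349 CPM and the 4 TAN libraries 376, 709, 558 and 694 CPM. All TAN libraries but one stood above all AL libraries, while TAN replicate 1 lay within the AL range. That library had more lymphocyte RNA (summed markers 1564 CPM against 12.1 to 400.1 CPM in the other TAN libraries) and less adipocyte RNA (19219 against 28214 to 37248 CPM). At 12AM the median log2 fold change was 0.72 for the 6 adipocyte and -1.04 for the 10 lymphocyte markers, and none of either list passed. The part of these markers in the Nampt values was not tested. The means were 376 ± 94.9 CPM in AL and 584 ± 155 CPM in TAN (SD, n = 4), and the log2 fold change of 0.64 did not pass (unadjusted p = 0.0468, edgeR's quasi-likelihood adjusted p = 0.279). The lowest mean was 179.7 CPM at 4PM in AL and 192 CPM at 12PM in TAN, so the highest mean was 2.09 times the lowest in AL and 3.05 times in TAN. Its 24-h cosine had an amplitude (mean to peak) of 0.61 in TAN with its peak at 22.9 h (adjusted p = 0.00387, edgeR's quasi-likelihood F test). In AL the amplitude was 0.36 with its peak at 23.0 h (unadjusted p = 0.0234, adjusted p = 0.356). The difference between the 2 cosines did not pass (adjusted p = 0.583), so the data do not separate the schedules in the amplitude or the hour of Nampt. The variation of Nampt over time in TAN passed with the lymphocyte covariate (adjusted p = 0.00329) and without the 10 low-lymphocyte libraries (0.0142), whereas its cosine passed with the covariate (0.00357) but not without those libraries (0.0865).

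At 4PM Nampt read 219.6, 183, 140.0 and 176 CPM in AL and 309, 221, 279 and 303 CPM in TAN. The groups did not overlap, but the lowest TAN library was only just above the highest AL library. The log2 fold change was 0.63 (unadjusted p = 0.0489, edgeR's quasi-likelihood adjusted p = 0.148). At 8PM the TAN libraries split, with 144 and 92.0 CPM in replicates 1 and 2 and 297 and 579 CPM in replicates 3 and 4, around AL values of 191, 316, 231 and 357 CPM. The summed adipocyte markers of those TAN libraries were 7349 and 4443 CPM in replicates 1 and 2 and 28745 and 38067 CPM in replicates 3 and 4. Nampt and the adipocyte markers were thus low in the same libraries, and the part of cell makeup in that split was not tested.

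Nmnat3, the mitochondrial enzyme of the last salvage step, had the widest range of TAN effects over the 6 times among the 9 genes, 2.53 on the log2 scale. At 8PM it read 7.69, 11.5, 14.4 and 17.9 CPM in AL and 27.3, 11.8, 30.5 and 50.3 CPM in TAN. TAN replicates 1, 3 and 4 stood above every AL library and TAN replicate 2 lay among them. Nmnat3 was 2.33-fold higher in TAN (29.97 ± 15.8 against 12.9 ± 4.34 CPM, log2 fold change 1.22 with a 95% interval of 0.58 to 1.86, edgeR's quasi-likelihood test, adjusted p = 0.0141). It was the only one of the 9 genes that passed at 8PM, where 11.7% of all genes did. Endothelial markers moved with schedule at the same time, with a summed level of 139 to 235 CPM in TAN and 292 to 383 CPM in AL, 2 of 4 passing as lower, and 1 of 6 macrophage and 1 of 4 stromal markers were also lower. Their part in the Nmnat3 value was not tested. Fitted with the 8PM libraries alone, the difference in Nmnat3 was 1.25 (adjusted p = 0.187). Without TAN replicate 4 the log2 fold change was 0.86 (adjusted p = 0.0617), and without AL replicate 1 it was 1.04 (adjusted p = 0.0597), in the same edgeR test.

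At 4PM Nmnat3 read 22.3, 15.7, 11.5 and 13.7 CPM in AL and 31.9, 28.2, 30.5 and 24.8 CPM in TAN. Every TAN library was above every AL library. The log2 fold change of 0.87 just missed the threshold (adjusted p = 0.0536, edgeR's quasi-likelihood test), which it passed in DESeq2 (adjusted p = 0.0345). At 8AM the order was the opposite, with 37.6, 13.3, 19.4 and 27.9 CPM in AL and 9.04, 11.1, 10.4 and 8.98 CPM in TAN. All 4 TAN libraries again lay outside the AL range, and they were close to each other while the AL libraries spread widely. The summed adipocyte markers at 8AM were 26578, 10075, 8982 and 36324 CPM in AL replicates 1 to 4. In TAN they were 12659 to 16393 CPM, and their part in the Nmnat3 values at 8AM was not tested. The log2 fold change of -1.31 had an unadjusted p of 0.000194 and an adjusted p of 0.216 in edgeR's quasi-likelihood test, where 0.0150% of all genes passed. DESeq2 gave -1.34 with an adjusted p of 0.0147.

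The TAN effect on Nmnat3 differed between times (interaction adjusted p = 0.0114, edgeR's quasi-likelihood F test). Its 24-h cosine in TAN had an amplitude of 0.81 on the log2 scale and its peak at 17.8 h (adjusted p = 3.54e-04), and in AL 0.34 with its peak at 8.69 h (adjusted p = 0.420). The difference between these cosines passed (adjusted p = 0.00103), as it did for 20.2% of all genes. With the lymphocyte marker level of each library as a covariate, the 8PM difference was 1.04 (adjusted p = 0.00787) and the interaction had an adjusted p of 0.00671, so both stayed past the threshold. The interaction passed in 1 of 4 fits that left out a replicate number. With the share of counts in TEC models, which moves with schedule at 8PM, as the covariate, they did not (0.79 with adjusted p = 0.327, and interaction adjusted p = 0.358), and without the 10 low-lymphocyte libraries the 8PM difference was 0.86 (adjusted p = 0.0641). TEC models are transcripts that the annotation holds as still awaiting experimental support, and their part in the result was not tested further.

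Nmnat1, the nuclear enzyme of the same step, was the scarcest of the 9 at 1.16 to 10.01 CPM. It passed in no comparison of schedules or times, although its variation over time in TAN had an adjusted p of 0.0212 in DESeq2. At 12AM its groups did not overlap, with 3.80 to 6.16 CPM in AL and 6.30 to 9.91 CPM in TAN (log2 fold change 0.59, adjusted p = 0.365, edgeR's quasi-likelihood test). It was the only one of the 9 genes without overlap at 12AM, where the groups of 9.13% of all genes did not overlap.

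Nadk, which makes NADP, followed a course similar in outline to that of Nampt, with its highest mean at 12AM on both schedules (389 ± 51.6 CPM in AL, 556 ± 125 CPM in TAN). At 4PM it read 276, 282, 263 and 294 CPM in AL and 407, 389, 454 and 469 CPM in TAN. The groups were tight and well apart. The log2 fold change of 0.62 missed the threshold (unadjusted p = 0.0197, edgeR's quasi-likelihood adjusted p = 0.0839). Its variation over time in TAN passed in 1 of 4 fits that left out a replicate number and missed with the lymphocyte covariate (adjusted p = 0.179). At 8PM replicates 1 and 2 of TAN were again the lowest, at 163 and 139 CPM against 397 and 552 CPM in the other two.

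Nnmt changed direction with the time of day. At 4PM it read 170.1, 194, 119 and 141 CPM in AL and 357, 279, 461 and 248 CPM in TAN. Every TAN library was above every AL library (log2 fold change 1.11, adjusted p = 0.0686, edgeR's quasi-likelihood test, and 0.0410 in DESeq2). At 4AM the values were 149, 358, 370.3 and 219 CPM in AL and 136, 108, 114 and 153 CPM in TAN. Here TAN was the lower, with only its highest library inside the AL range (log2 fold change -1.10, unadjusted p = 0.0144, adjusted p = 0.9995). At 12PM TAN held 155 to 194 CPM and AL spread from 162 to 619 CPM (log2 fold change -0.97, unadjusted p = 0.0300, adjusted p = 0.633). No single time passed, but the difference of the TAN effect between times did (interaction adjusted p = 0.0340, edgeR's quasi-likelihood F test). The cosine peak was at 19.2 h in TAN (amplitude 0.59, adjusted p = 0.0412) and at 7.22 h in AL (amplitude 0.45, adjusted p = 0.427), and the difference between them passed (adjusted p = 0.00921). With the lymphocyte marker level as a covariate the interaction had an adjusted p of 0.468 and the TAN cosine one of 0.373, so neither passed. With the replicate number as a block, the interaction (0.0501), the TAN cosine (0.0599) and the variation of Nnmt over time in TAN (0.0609) all missed the threshold.

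**Figure D3:**
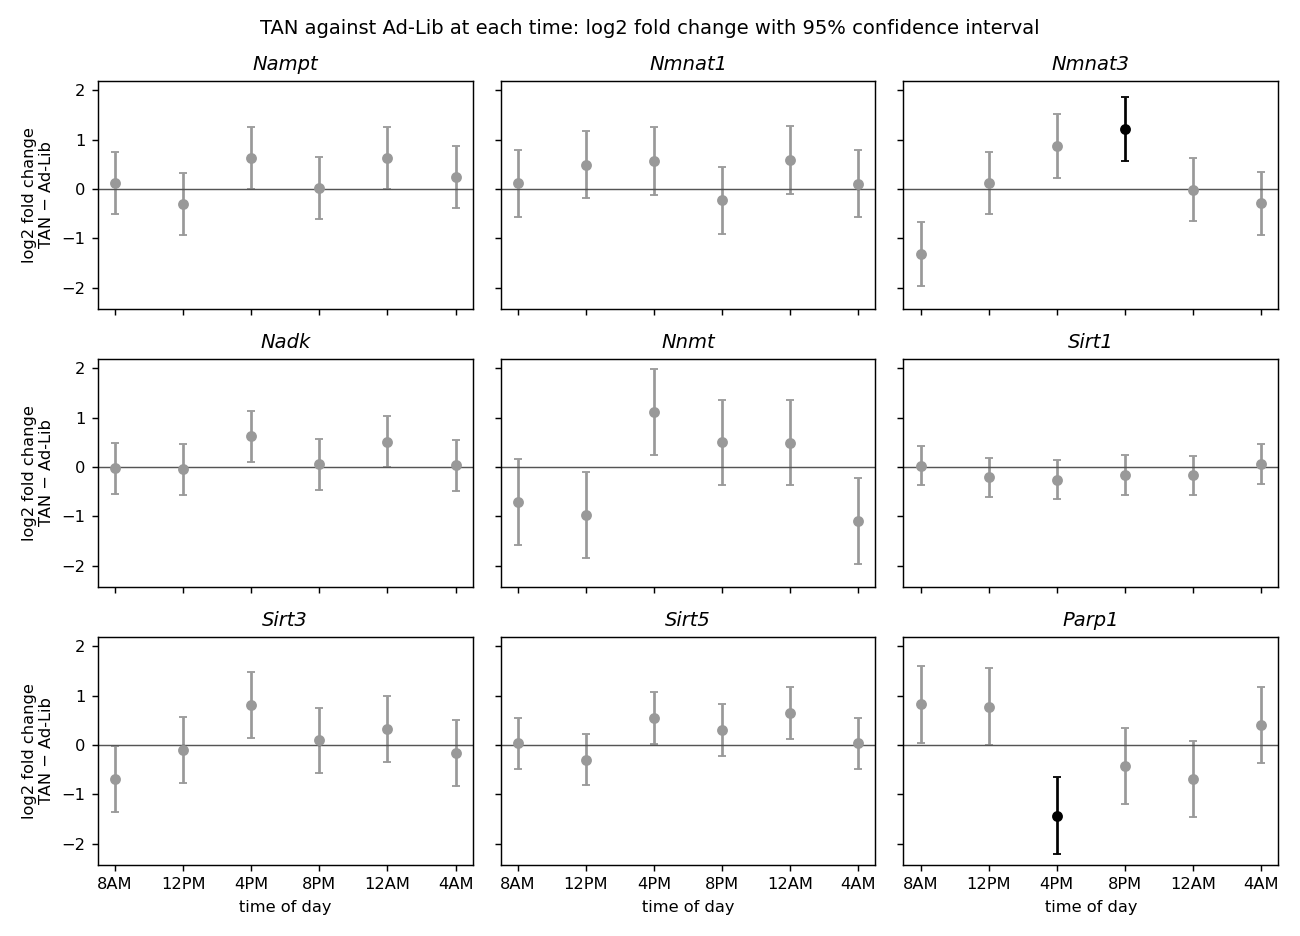
Difference between TAN and AL at each time as a log2 fold change with its 95% confidence interval, 1 panel per gene, black where the adjusted p is under 0.05 and grey elsewhere. Nmnat3 runs from -1.31 at 8AM to 1.22 at 8PM, Parp1 reaches -1.43 at 4PM, and Sirt1 stays within 0.25 of 0.

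Among the enzymes of the 9 that consume NAD, Parp1 fell in TAN at 4PM. It read 46.6, 53.4, 71.7 and 64.3 CPM in AL and 12.5, 26.0, 16.9 and 32.3 CPM in TAN. The groups were wholly apart. The means were 59.0 ± 11.2 and 21.9 ± 8.94 CPM, a log2 fold change of -1.43 with a 95% interval of -2.22 to -0.64 (adjusted p = 0.0177, edgeR's quasi-likelihood test). Parp1 was the only one of the 9 to pass at 4PM, where 15.3% of all genes did. It is also the gene of the 9 that rose most with lymphocyte markers, and those markers did not overlap between the groups at 4PM. All 10 lymphocyte markers were lower in every TAN library, with a summed level of 980 to 1708 CPM in AL and 8.75 to 353 CPM in TAN, and none was at 0 in either group. With that level as a covariate the Parp1 difference was -0.63 (adjusted p = 0.489). Without TAN replicate 1 the log2 fold change was -1.23 (adjusted p = 0.0728), and without AL replicate 3 it was -1.30 (adjusted p = 0.0619).

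At the other end of the day Parp1 was higher in TAN without passing. At 8AM it read 28.7, 67.1, 34.2 and 12.0 CPM in AL and 66.7, 49.0, 62.1 and 73.6 CPM in TAN. The lowest AL library was also the one AL library at 8AM with few lymphocyte transcripts. The log2 fold change was 0.82 at 8AM (adjusted p = 0.739) and 0.78 at 12PM (adjusted p = 0.677, edgeR's quasi-likelihood test). The TAN effect on Parp1 differed between times (interaction adjusted p = 0.0223), and its cosine peaked at 6.54 h in TAN (amplitude 0.59, adjusted p = 0.0207) and at 21.01 h in AL (amplitude 0.44, adjusted p = 0.377), with a difference that passed (adjusted p = 0.00671). With the lymphocyte covariate the interaction had an adjusted p of 0.336 and the difference of the cosines one of 0.0831.

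The sirtuins passed in no comparison of schedules or times in the main fit of edgeR's quasi-likelihood test. The cosine of Sirt5 in TAN passed in DESeq2 (adjusted p = 0.0274). It also passed in edgeR's quasi-likelihood F test when the libraries were scaled by RLE size factors (adjusted p = 0.0427). Sirt1 read 32.3 to 67.6 CPM in AL and 34.8 to 74.3 CPM in TAN, with a log2 range over time of 0.35 in AL and 0.16 in TAN. The TAN range of Sirt1 was 0.38 with the lymphocyte covariate, 0.44 with the TEC covariate and 0.67 without the 10 low-lymphocyte libraries. Its widest TAN effect was -0.25 at 4PM, with a 95% interval of -0.65 to 0.15, and over the 6 times no interval reached below -0.65 or above 0.46. That 4PM effect on Sirt1 was 0.09 with the lymphocyte covariate, so its sign changed with the covariate. Without the 10 low-lymphocyte libraries it was -0.68, but replicate 3 was then the only TAN library left at 4PM. That library read 34.8 CPM, the lowest TAN value at that time, and it also enters the range of 0.67. Sirt3 read 10.9, 19.1, 9.23 and 13.6 CPM in AL and 28.8, 21.6, 26.8 and 15.5 CPM in TAN at 4PM. TAN replicates 1, 2 and 3 were above all AL libraries (log2 fold change 0.81, adjusted p = 0.0820, edgeR's quasi-likelihood test). At 8AM the TAN libraries, at 11.0 to 13.6 CPM, lay below the AL libraries at 15.2 to 32.3 CPM (log2 fold change -0.68, adjusted p = 0.757). Nmnat3 and Sirt3 were the 2 of 9 genes without overlap at 8AM, against 3.07% of all genes. Sirt5 reached its largest TAN effect at 12AM, with 7.75 to 11.8 CPM in AL and 9.20 to 18.8 CPM in TAN (log2 fold change 0.65, adjusted p = 0.195). Only 1 TAN library lay inside the AL range.

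Across the 9 genes, 4PM was the time with the largest shift. The median log2 fold change was 0.62 at 4PM against -0.09 over all genes tested, with 7 of the 9 above 0. At an unadjusted p under 0.05 there were 7 of 9 genes, against 33.2% of all genes, and the groups of 5 of 9 did not overlap (4 higher, 1 lower), against 30.6% of all genes. The medians of the 9 genes and of all genes were 0.49 and -0.14 at 12AM, 0.05 and -0.10 at 8PM, 0.04 and 0.00 at 4AM, 0.03 and 0.01 at 8AM, and -0.10 and 0.04 at 12PM. None of the 9 passed at 8AM, 12PM, 12AM or 4AM in edgeR's quasi-likelihood test, against 0.0150%, 0.0901%, 0.150% and 0% of all genes. At an unadjusted p under 0.05 these times had 3, 2, 2 and 1 of the 9, against 6.58%, 7.37%, 17.5% and 2.64% of all genes, and by DESeq2 they had 1, 0, 0 and 0. Adipocyte markers moved with the 4PM shift, all 6 being higher in every TAN library than in any AL library (summed level 22477 to 46771 CPM in TAN, 9239 to 14797 CPM in AL). Their part in the higher values of Nampt, Nmnat3, Nadk, Nnmt and Sirt3 at 4PM was not tested, and with the lymphocyte covariate the 4PM differences of Nampt, Nmnat3 and Nnmt were 0.14, 0.37 and 0.40.

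Within groups, all 9 genes varied with the lymphocyte marker level, as did 44.2% of all genes. The slope, in log2 units of the gene per log2 unit of the markers, was negative for 7 genes (21.5% of all genes), from -0.16 for Nnmt to -0.08 for Sirt5. It was positive for Sirt1 at 0.07 and Parp1 at 0.14 (22.6% of all genes). Sirt1 and Parp1 were thus higher, and the other genes lower, in libraries with more lymphocyte RNA.

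**Figure D4:**
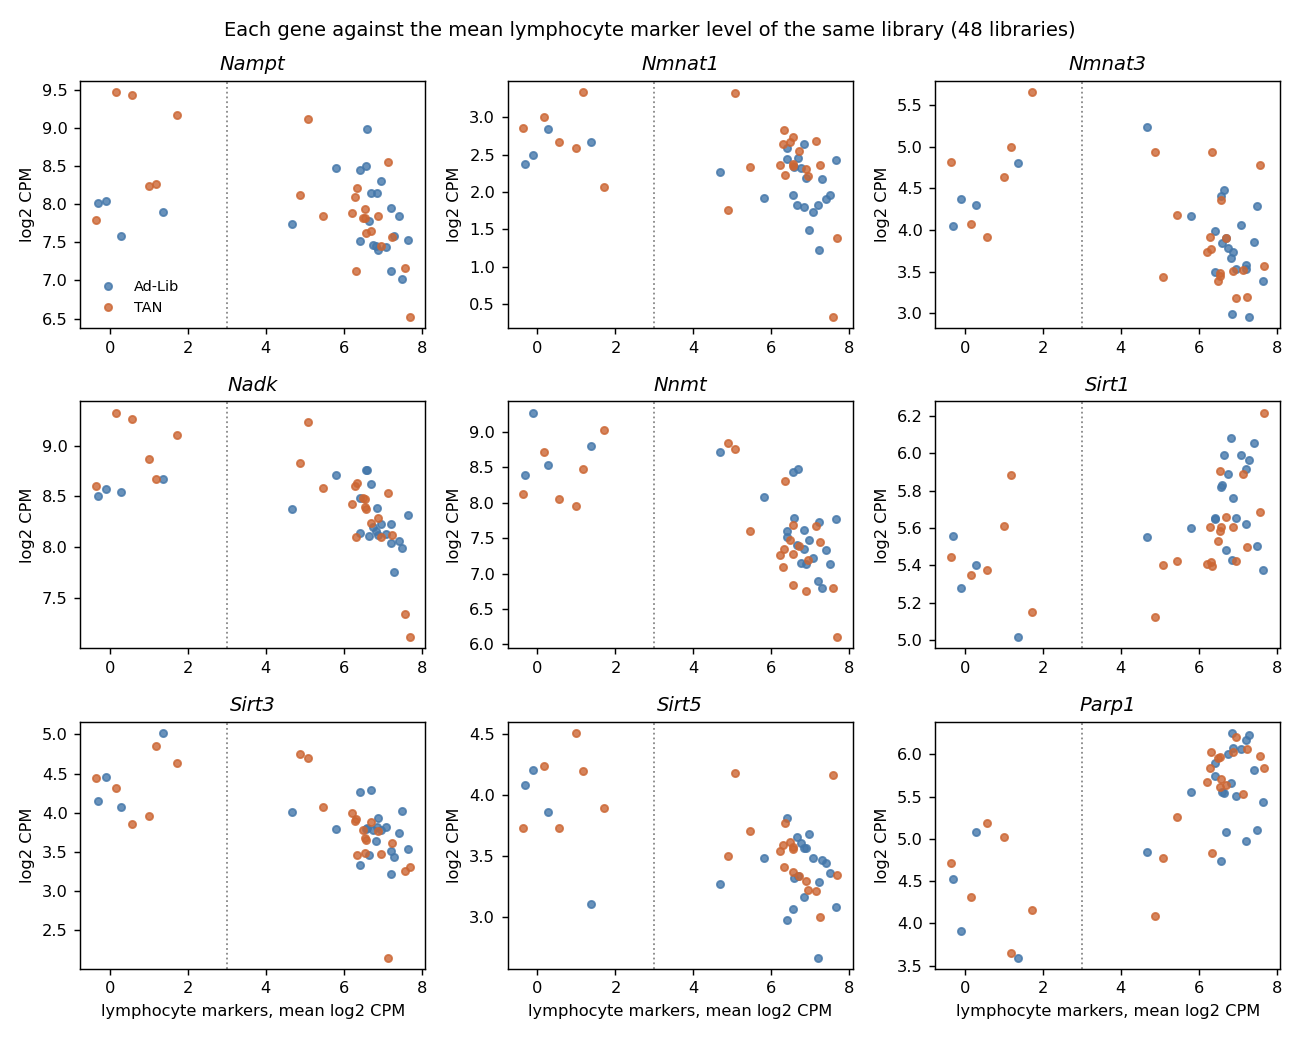
Log2 CPM of each gene against the mean log2 CPM of 10 lymphocyte markers in the same library (AL blue, TAN orange, 48 libraries), with a dotted line at 3 that separates the 10 low libraries. Parp1 and Sirt1 lie higher on the right, and the other 7 genes lie lower, with slopes within groups of -0.16 to 0.14.

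Clock genes served as a reference for the hours. Arntl, the partner of Clock, had its highest mean at 8AM on both schedules (32.3 ± 9.59 CPM in AL, 46.0 ± 4.60 CPM in TAN). The clock outputs Dbp and Nr1d1 were highest at 4PM on both, Dbp at 102 ± 19.9 and 154 ± 58.0 CPM and Nr1d1 at 92.3 ± 26.5 and 138 ± 75.6 CPM in AL and TAN. Per2, a repressor of the clock, was highest at 8PM in AL (21.01 ± 3.61 CPM) and at 12AM in TAN (19.0 ± 15.5 CPM). The 12AM maximum of Nampt thus came later than those of Dbp and Nr1d1 and earlier than that of Arntl. The highest mean of Nampt in AL was 2.09 times the lowest, as was that of Clock (2.09), below Per1 (2.59), Tef (2.68), Cry1 (3.05), Arntl (3.25), Per3 (4.36), Per2 (5.72), Dbp (12.2), Nr1d1 (25.4) and Npas2 (27.9). In TAN the ratio for Nampt, 3.05, lay above that of Per1 (2.62) and below those of the other clock genes.

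**Figure D5:**
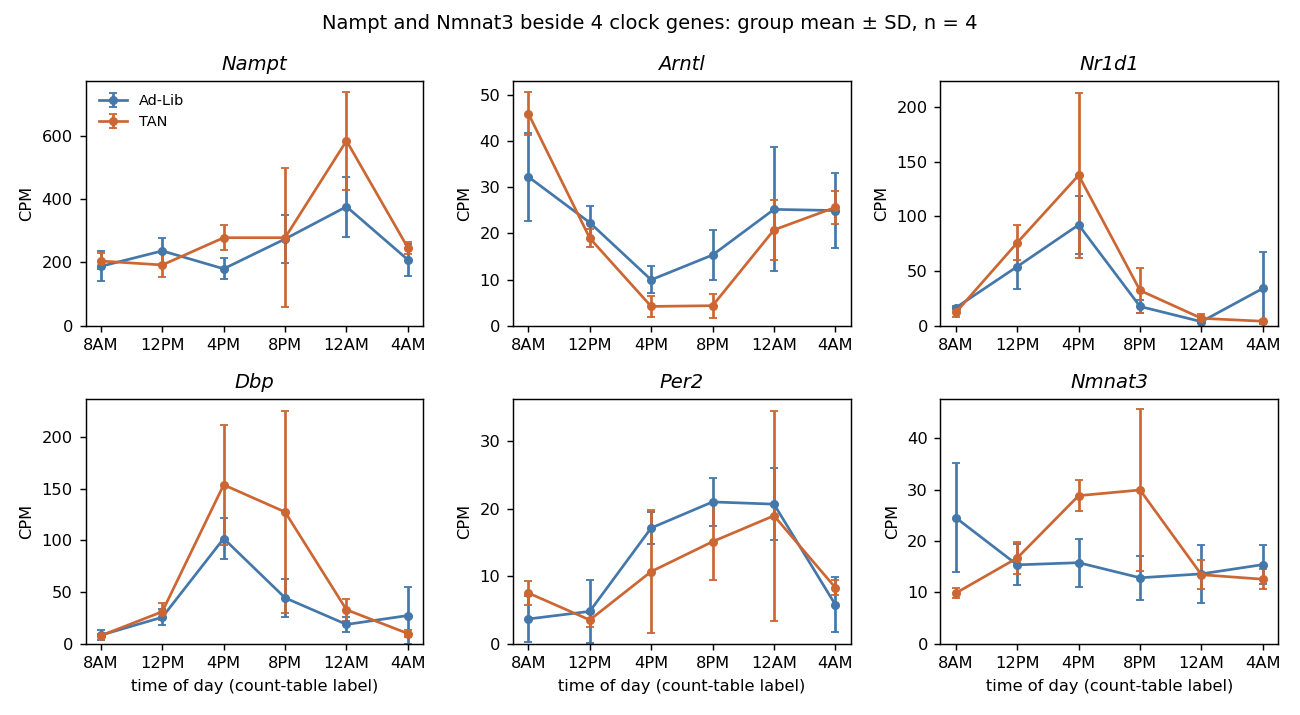
Group means with SD (CPM, n = 4) of Nampt and Nmnat3 beside the clock genes Arntl, Nr1d1, Dbp and Per2 at the 6 times, AL blue and TAN orange. Arntl is highest at 8AM, Dbp and Nr1d1 at 4PM and Nampt at 12AM on both schedules.

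The genes whose 12 group means of log2 CPM followed Nampt most closely were Adh1, an alcohol dehydrogenase (Pearson r = 0.937), D2hgdh, the D-2-hydroxyglutarate dehydrogenase (0.934), and Dnajb6, a co-chaperone (0.917). For Nnmt they were Ube2w, a ubiquitin-conjugating enzyme (0.971), Pigc, which acts in the making of membrane anchors (0.967), and Rcn2, a calcium-binding protein of the endoplasmic reticulum (0.958). These are descriptions over 12 points that share their libraries, and so share whatever differs in cell makeup between them.

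A list of 32 other NAD genes covered the nicotinic acid, nicotinamide riboside and kynurenine routes, the remaining sirtuins and Parp enzymes, and NAD hydrolases and carriers. Of these, 31 could be tested, Acmsd having at most 10 counts in a library. At 4PM 7 passed (edgeR's quasi-likelihood test), 2 higher and 5 lower in TAN, against 15.3% of all genes, and at 8PM 4 were lower, against 11.7% of all genes. At 8AM, 12PM, 12AM and 4AM 0 passed, with 3, 4, 4 and 0 at an unadjusted p under 0.05, against 6.58%, 7.37%, 17.5% and 2.64% of all genes. The median log2 fold change of the list was -0.30 at 4PM and -0.04 at 8PM, beside -0.09 and -0.10 over all genes. Naprt, which starts NAD synthesis from nicotinic acid, rose at 4PM from 11.1 ± 2.32 CPM in AL to 23.3 ± 2.35 CPM in TAN (log2 fold change 1.07, adjusted p = 0.0135). Slc25a51, the mitochondrial NAD carrier, rose from 150.0 ± 16.9 to 271 ± 29.2 CPM (0.85, adjusted p = 0.0339). Kynu, the kynureninase of the route from tryptophan, fell from 12.7 ± 3.08 to 0.852 ± 0.789 CPM (-3.88, adjusted p = 0.0365). Ido2, which opens that route, had 4 to 9 counts per AL library and 0 in all 4 TAN libraries at 4PM, and 2 to 16 counts against 0 at 8PM. Nnt, the mitochondrial transhydrogenase, had 8 to 14 counts per AL library and 0 to 2 per TAN library at 8PM, all close to the limit of detection. The symbol Nnt has 2 overlapping gene models, and only the longer was used, so its value is uncertain. The other genes that passed were all lower in TAN, Cd38, Haao and Kmo at 4PM and Aox1 and Parp2 at 8PM. Cd38 fell from 110 ± 19.9 to 40.5 ± 11.3 CPM, Aox1 from 87.5 ± 38.6 to 29.4 ± 17.6 CPM and Parp2 from 26.6 ± 7.53 to 15.4 ± 3.41 CPM. For the TAN effect averaged over the 6 times, 1 of the 31 passed, Cd38, as lower, against 5.42% of all genes. The adipocyte markers that were higher in TAN at 4PM moved with Naprt and Slc25a51, and the lymphocyte markers that were lower then moved with Kynu and Ido2. Their part in these values was not tested. The 11 calls of the list over the 6 times became 5 with the lymphocyte covariate, 0 with the TEC covariate, 4 without a filter on low counts and 0 to 3 when 1 replicate number was left out.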

How the data were processed

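Per the labels and methods, poly(A) RNA of 48 libraries (12 groups of 4) was sequenced on Illumina instruments, and the authors deposited raw read counts per gene with gene length and coordinates. The submitters' processing notes name TopHat 1.3.3, DESeq2 1.20.0, edgeR and limma, and the builds mm9, mm10 and GRCm38. 98% of the table's coordinates equalled GENCODE M21 on GRCm38. The strand setting and counting program were not given in the sources used here. A table of group values in FPKM was not used. No 2 libraries were identical, and replicate numbers were not treated as pairs in the main fit.

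Genes with enough counts (edgeR filterByExpr, minimum count 10) were scaled by TMM to CPM and fitted over 12 groups with edgeR 4.0.16 quasi-likelihood (R 4.3.3). The same steps were also run on counts simulated from the means and spread of these data, which is no independent check. Contrasts were TAN against AL at each time, their mean and interaction, and F tests of time and of a 24-h cosine within each schedule. P-values were Benjamini-Hochberg adjusted over all 19977 genes, with 0.05 as the threshold. Intervals are 95%. Slopes came from the same fit with the marker level as a covariate. Alternatives were DESeq2 1.42.0, other scaling, no filter, a replicate block, covariates, separate fits and leaving out libraries. Depth was 15636378 to 29913310 counts a library. The 9 genes, lists and tests were chosen with earlier results of these data known. The genes described first from the NAD list were up to 2 per direction and time with the largest fold changes past the threshold. The other genes of the list that passed were named after them.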

Additional observations from a re-analysis of the deposited data

Results flagged for a closer look

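In 8 of the 108 combinations of gene and group (4 libraries each), 1 library stood apart from the rest, its gap to them exceeding the 95% critical value of Dixon's test. Chance gives this in about 1 group in 20. Sirt3 held 4 of the 8. It was highest in AL replicate 4 at 8AM at 32.3 CPM (others 15.2 to 16.1) and in TAN replicate 4 at 8PM at 24.8 CPM (others 9.46 to 10.9). Both libraries held few lymphocyte transcripts, 32.3 and 45.0 CPM of summed markers, and their part in these values was not tested. Sirt3 was lowest in AL replicate 1 at 8PM at 10.7 CPM and in AL replicate 4 at 12AM at 9.999 CPM. At 12AM TAN replicate 1 was lowest in Nadk at 371 CPM (others 599 to 640.2) and highest in Sirt1 at 59.2 CPM (others 40.7 to 42.3), and its lymphocyte markers summed to 1564 CPM against 12.1 to 400.1 CPM in the other libraries of that group. Sirt1 was also apart in AL replicate 1 at 4AM at 63.4 CPM, and Sirt5 in AL replicate 2 at 8PM at 12.7 CPM.

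The effect of TAN differed between times for 3 genes by the interaction term of edgeR's quasi-likelihood test, with adjusted p-values of 0.0114 for Nmnat3, 0.0340 for Nnmt and 0.0223 for Parp1. The 24-h cosine differed between schedules for the same 3 genes, with adjusted p-values of 0.00103, 0.00921 and 0.00671. The interaction of Nmnat3 had an adjusted p of 0.00671 with the lymphocyte covariate, 0.0190 without the 10 libraries low in lymphocyte transcripts and 0.358 with the share of counts in TEC models as the covariate. In the 4 fits that each left out 1 replicate number, the interaction passed in 1 for Nmnat3, 1 for Nnmt and 2 for Parp1.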

How the results depend on the processing

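Parp1 at 4PM and Nmnat3 at 8PM, the called member results that have a direction, kept it under the alternatives run, whereas ranges over time and cosine amplitudes are positive by construction. At an unadjusted p under 0.05, 3, 2, 7, 2 and 1 of the 9 genes passed at 8AM, 12PM, 4PM, 12AM and 4AM. DESeq2 called 1 at 8AM, 3 at 4PM and 17 combinations of gene and time in the NAD list (11 in edgeR). At 4PM, RLE size factors gave 2 and separate fits per time 5, and at 8PM separate fits gave 0. RLE size factors also called the cosine of Sirt5 in TAN (adjusted p = 0.0427, edgeR's quasi-likelihood F test). With the lymphocyte covariate the counts were 0 at 4PM, 2 for time in TAN, 1 for the interaction, 2 for the cosine in TAN, 1 for the difference of cosines and 5 for the list. With the share of counts in TEC models (unconfirmed transcripts, 0.0294 to 0.0394% in TAN against 0.0807 to 0.104% in AL at 8PM) as covariate, they were 0 at 4PM, 0 at 8PM, 3, 0, 1, 0 and 0. Without the 10 low-lymphocyte libraries, an alternative chosen after seeing the data, 0 passed at 8PM, 3 for time in TAN, 1 for the interaction and 2 for the cosine in TAN. That alternative left out 3 of the 4 TAN libraries at 4PM. With it 8 of 117 member results lost their call and 0 gained one, so the counts just given do not cover every loss. Without a filter the list had 4, and 3 member results lost their call, all of Nnmt (adjusted p = 0.0685 for time in TAN, 0.0548 for the interaction and 0.0571 for the cosine in TAN, in edgeR). Leaving out 1 library at a time gave 0 to 1 at 8AM, 0 to 2 at 4PM and 0 to 1 at 8PM, and leaving out replicate numbers gave 2 to 5 for time in TAN, 0 to 3 for the interaction, 1 to 4 and 1 to 3 for the cosines and 0 to 3 for the list. The cause of these changes was not tested.

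The labels do not say whether replicate numbers mark shared animals. Same-numbered AL and TAN libraries of the same time were compared, and 6 of 24 pairs correlated above 0.1 (median r 0.0371). Those pairs cannot show whether libraries of different times share an animal. With the replicate block, 114 of 117 member results kept their call, and 3 did not, all of Nnmt: range over time in TAN 1.40 (adjusted p = 0.0609), interaction 2.21 (0.0501) and cosine amplitude 0.57 (0.0599), in edgeR. Nmnat1, with as few as 23 counts in a library, had the least depth of the 9.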
